A study of Mus musculus with 6 samples.

Results

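Eph receptors form the largest family of receptor tyrosine kinases, and their ligands, the ephrins, are tethered to the surface of neighbouring cells. A-class ephrins hang on a lipid anchor and B-class ephrins span the membrane, so a contact between cells can signal into the receptor-bearing cell and, from B-class ephrins, back into the ligand-bearing cell. In epithelia and carcinomas these signals act on cell sorting, cell repulsion, adhesion and the actin cytoskeleton.

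The 10 members described here were chosen by gene symbol, with earlier results of these data known. Their comparison with all genes is therefore not blind to the data. They are the receptor genes Epha1, Epha2, Epha4, Epha7, Ephb2, Ephb3 and Ephb4 and the ligand genes Efna1, Efnb1 and Efnb2, each matched to its Ensembl identifier, out of 48820 identifiers in the deposited table. The other 12 Eph and ephrin genes of the mouse were followed beside them. RNA-seq had been made from spheroids of 4T1 cells (a murine mammary carcinoma line of the triple-negative type) grown in RPMI medium with serum, with 3 libraries labelled WT and 3 labelled LATS1/2 double-knockout (dKO). LATS1 and LATS2, Hippo pathway kinases, hold back YAP and TAZ, coactivators that reach DNA through TEAD factors. The replicate numbers in the sample titles are marked as biological. What this marking covers is not explained, such as whether the double-knockout line is 1 clone or whether replicates came from separate cultures. The p-values therefore measure the spread between these libraries, and how much of that spread is technical is not known.

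Library totals ran from 38194478 to 49630116 counts. Lats1 was lower in the libraries labelled dKO, at 50.9 ± 2.55 against 153 ± 6.36 CPM in WT, whereas Lats2 was higher, at 77.9 ± 12.5 against 27.2 ± 4.01 CPM (SD, n = 3). CPM is a count scaled to the size of its library, here after TMM scaling. Of the exon bases of Lats2, 42.39% are shared with Gm49361 on the same strand, so its count depends on how reads were assigned. A gene total cannot reveal a short indel, so the Lats2 level is no check of the genotype, and directions are given for the libraries under their labels. The second principal component held 6.2% of the variance, against 82.0% on the first. On the second, WT 2 and dKO 3 differed from the rest of their own groups, at -31.0 against 11.3 and 17.6 in WT and at 47.9 against -21.2 and -24.6 in dKO. Epithelial markers were abundant in every library, with Epcam, Krt8, Krt18, Krt14, Cdh1 and Cldn7 summing to 4203 to 4679 CPM in WT and 3167 to 3876 CPM in dKO (2 of the 6 called higher, 4 lower). The 10 endothelial and pericyte markers, of cells in which Ephb4 and Efnb2 are well known, summed to 2.44 to 2.80 CPM in WT and 0.582 to 1.87 CPM in dKO, with 1 of 3 tested called lower (Rgs5), none higher, and Kdr, Emcn and Cldn5 at 0 in all 6 libraries. The 10 fibroblast markers summed to 37.2 to 60.3 CPM in WT, where most came from Pdgfra, and 11.6 to 12.9 CPM in dKO. Of the 4 tested, Pdgfra and Col1a1 were called lower and Postn (0.433 to 6.14 CPM) and Col1a2 (0.0331 to 0.718 CPM) higher, with Lum and Thy1 at 0 in every library. The 9 leukocyte markers summed to 3.30 to 16.3 CPM in WT and 77.1 to 209 CPM in dKO, there mostly from Csf1r (62.7 to 190 CPM). All 3 tested, Csf1r, Cd68 (2.15 to 15.6 CPM) and Itgam (0 in WT, 13 to 20 counts in dKO), were called higher. Adgre1, not tested, had 81 and 103 counts in dKO 1 and 2 and 0 elsewhere. Itgam, Postn and Col1a2 met the count filter in all 3 libraries only of the dKO group, and Rgs5 only of WT. Their calls are therefore not independent of that filter. Cd3e and Tyrobp were at 0 throughout, Ptprc had 0 counts in WT and 4, 17 and 0 in dKO, and Lyz2 and Fcer1g had at most 6 counts. Of the 9 markers, 6 stayed under 1 CPM in all 6 libraries. Whether cells of these types were present, and any part of them in the results below, was not tested. In bulk RNA, fewer cells of a type and less RNA per cell cannot be told apart.

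Among the members, the 3 ephrin genes and the B-class receptor genes Ephb2 and Ephb4 were lower in the libraries labelled dKO, and Epha4 and, by a small margin, Epha1 were higher. Of the 10 members, 9 passed the count filter and were tested, and 2 were called higher, 5 were called lower and 2 were not called at an edgeR adjusted p under 0.05. The background was high, with 57.3% of all 15807 tested genes called, 28.6% as higher in dKO and 28.7% as lower. Among the 9 tested members, 7 had CPM ranges that were separate between WT and dKO, as did 65.6% of all tested genes. The median log2 fold change was -0.90 over the tested members and -0.01 over all tested genes.

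**Figure D1:**
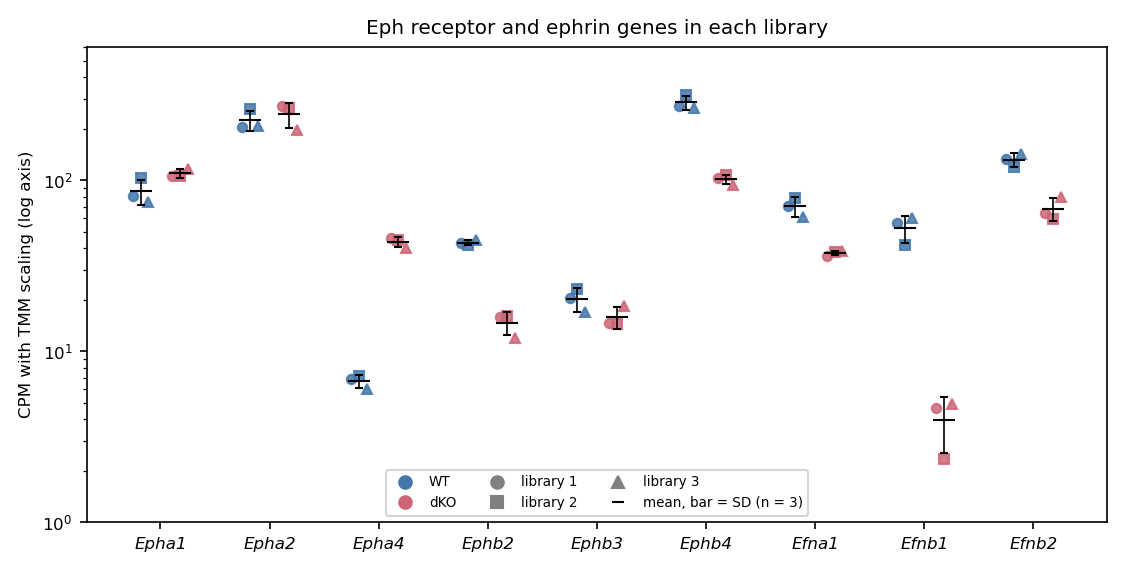
CPM with TMM scaling (log axis) of the 9 detected members in each of 6 libraries, WT in blue and dKO in red, with the mean and SD of 3 libraries in black. Epha4 stood near 6.66 CPM in WT and 43.7 CPM in dKO, Efnb1 fell from 52.6 to 3.96 CPM, and the points of Epha2 and Ephb3 overlap between groups.

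Epha4 encodes a receptor that binds ephrins of both classes, and it was the member with the largest rise. Its gene lies on GRCm38 chromosome 1, 77367185 to 77515088, minus strand (ENSMUSG00000026235). Its levels were 6.85, 7.15 and 5.99 CPM in WT 1, 2 and 3 and 46.2, 44.7 and 40.3 CPM in dKO 1, 2 and 3. All 3 libraries labelled dKO lay far above all WT libraries, a ratio of means of 6.56. Its log2 fold change came to 2.71 ± 0.12 (SE; edgeR adjusted p = 3.26e-07).

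Epha2 and Epha1 were the best expressed A-class receptor genes. Epha2 (chromosome 4, 141301240 to 141329384, plus strand, ENSMUSG00000006445) encodes the main ephrin-A1 receptor of epithelial cells. It stood at 204, 260 and 207 CPM in the WT libraries and at 270, 264 and 197 CPM in the libraries labelled dKO. The groups overlapped, with WT 2 high and dKO 3 low, and Epha2 was not called, with its log2 fold change at 0.12 and a 95% interval of -0.19 to 0.44 (edgeR adjusted p = 0.484). With WT 2 and dKO 3 left out together, its log2 fold change was 0.37 (edgeR adjusted p = 2.54e-05). Those are the libraries behind the overlap, and they were singled out on the same data. That fit also had fewer libraries in each group, so its p-value does not support a rise of Epha2. Under the other 17 of 18 alternatives Epha2 was not called.

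Epha1 (chromosome 6, 42358487 to 42373268, minus strand, ENSMUSG00000029859), an epithelial A-class receptor gene, was at 80.9, 103 and 74.3 CPM in WT and 106, 106 and 117 CPM in the libraries labelled dKO. The ranges did not overlap, but WT 2 lay just under the lowest library labelled dKO. Its log2 fold change of 0.35 ± 0.12 passed (edgeR adjusted p = 0.0312) and was lost when WT 1, WT 3, dKO 1, dKO 2 or dKO 3 was left out, at adjusted p values of 0.114, 0.109, 0.0605, 0.0591 and 0.0838. Without WT 2 it was 0.50 on the log2 scale and kept its call (edgeR adjusted p = 0.00125). Of the exon bases of Epha1, 6.01% are shared with Zyx on the other strand, which stood at 173 CPM in WT and 194 CPM in dKO and was not called (edgeR adjusted p = 0.344), and reads there cannot be told apart without strand. Epha7, a receptor gene known from the nervous system (chromosome 4, 28813131 to 28967499), had 0 counts in all 6 libraries and was not tested. A floor of 12 counts per library corresponds to 0.243 to 0.314 CPM with TMM scaling, so a level below that was not detectable at this depth.

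Of the B-class receptors, Ephb4 and Ephb2 fell. Ephb4 (chromosome 5, 137350109 to 137378669, plus strand, ENSMUSG00000029710), whose protein prefers ephrin-B2, had 273, 316 and 266 CPM in WT and 103, 107 and 93.7 CPM in the libraries labelled dKO. Every WT library lay far above every library labelled dKO, a ratio of WT to dKO means of 2.82. The log2 fold change was -1.49 ± 0.09 (edgeR adjusted p = 1.76e-06). Only 0.71% of its exon bases are shared with another gene, Zan on the other strand, which had 2.92 CPM in WT and 4.04 in dKO.

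Ephb2 (chromosome 4, 136647539 to 136835988, minus strand, ENSMUSG00000028664), a receptor gene known as a Wnt target in the gut epithelium, was at 43.0, 41.6 and 44.4 CPM in WT and 16.0, 16.0 and 12.03 CPM in the libraries labelled dKO. Its WT libraries lay close together and well above the others, with a log2 fold change at -1.55 ± 0.13 (edgeR adjusted p = 1.24e-05). Ephb3 (chromosome 16, 21204755 to 21223305, plus strand, ENSMUSG00000005958), its close relative, was at 20.5, 23.3 and 16.9 CPM in WT and 14.6, 14.4 and 18.4 CPM in the libraries labelled dKO. These ranges overlapped, through WT 3 and dKO 3. Ephb3 was not called, with its log2 fold change at -0.36 and a 95% interval of -0.72 to 0.01 (edgeR adjusted p = 0.0858), and was called lower without WT 3 (adjusted p = 0.0416), without dKO 3 (0.0343) and without WT 2 and dKO 3 together (0.0402). Under the other 15 alternatives Ephb3 was not called.

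All 3 ligand genes among the members fell. Efnb1 (chromosome X, 99136130 to 99148991, plus strand, ENSMUSG00000031217), which encodes a membrane-spanning ephrin with reverse signalling, had 56.1, 41.8 and 59.7 CPM in WT and 4.66, 2.33 and 4.89 CPM in the libraries labelled dKO. Behind the lower group stood 178, 95 and 210 counts, above the floor of 12. No library of either group came near the other group, and the ratio of WT to dKO means was 13.3. The log2 fold change was -3.73 ± 0.28 (edgeR adjusted p = 1.14e-05).

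Efnb2 (chromosome 8, 8617434 to 8661242, minus strand, ENSMUSG00000001300), the preferred ligand of EphB4, stood at 134, 119 and 143 CPM in WT and 64.4, 59.6 and 79.9 CPM in the libraries labelled dKO. The groups did not overlap, and dKO 3 was the highest of its group. Its log2 fold change was -0.96 ± 0.12 (edgeR adjusted p = 0.000148). Efna1 (chromosome 3, 89271733 to 89281142, minus strand, ENSMUSG00000027954), the lipid-anchored ligand of EphA2, was at 70.8, 79.0 and 60.7 CPM in WT and 36.2, 38.04 and 38.5 CPM in the libraries labelled dKO. The libraries labelled dKO were close to each other and all below WT, with a log2 fold change at -0.90 ± 0.11 (edgeR adjusted p = 0.000104).

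Of the family genes outside the members, most ligand genes were lower as well. Of these 12 genes 8 were tested, and 1 was called higher and 5 lower, beside 28.6% higher and 28.7% lower over all tested genes. Efna4 fell from 47.6 ± 7.05 to 13.2 ± 1.33 CPM and Efna5 from 51.9 ± 1.66 to 26.9 ± 3.26 CPM (edgeR adjusted p = 5.94e-06 and 7.55e-05), both genes of lipid-anchored ligands. Efna3 was at 4.18, 4.66 and 2.95 CPM in WT and 0.157, 0.147 and 0.396 CPM in the libraries labelled dKO. Since 6, 6 and 17 counts lay behind those low values, near the floor of 12, the size of its fold is uncertain. Efnb3 was the single ephrin gene called higher, from 3.97 ± 1.09 to 7.71 ± 1.63 CPM (edgeR adjusted p = 0.0122), a call that was lost without dKO 2 (0.0522). Efna2, at 0.676 ± 0.202 CPM in WT and 0.456 ± 0.0968 CPM in dKO, was not called (edgeR adjusted p = 0.370).

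Among the other receptors, Ephb6, which encodes a receptor without kinase activity, fell from 30.05 ± 1.18 to 8.38 ± 2.95 CPM (edgeR adjusted p = 0.000115). Its 3 libraries labelled dKO had 6.99, 6.39 and 11.8 CPM, with dKO 3 the highest. Epha10 had 87, 19 and 56 counts in WT, whereas all 3 libraries labelled dKO had 0. Its WT mean was 3.88-fold above the floor of 12 counts per library in dKO, but WT 2 alone, at 0.471 CPM, lay much closer to that floor. Epha8 stood at 2.37 ± 0.474 CPM in WT and 1.11 ± 0.693 CPM in dKO and was not called (edgeR adjusted p = 0.107), although its ranges did not overlap. It passed by limma-voom (adjusted p = 0.0490) and without WT 2 and dKO 3 (edgeR adjusted p = 0.0282). Epha3, Epha5 and Epha6 had 0 counts in all 6 libraries, and Ephb1 had 4 counts in WT 2, 4 in dKO 1 and 0 elsewhere. Efna2, Epha8 and Ephb1 fall outside the rule for named genes and were added after their values were seen. Over all 8 ephrin genes, 6 were called lower, 1 higher and 1 was not called. Over the 9 tested receptors of 14, 4 were called lower, 2 higher and 3 were not called. The shares over all tested genes were 28.7% lower, 28.6% higher and 57.3% called in either direction. Epha10 and Efna3 passed the count filter through their WT libraries.

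**Figure D2:**
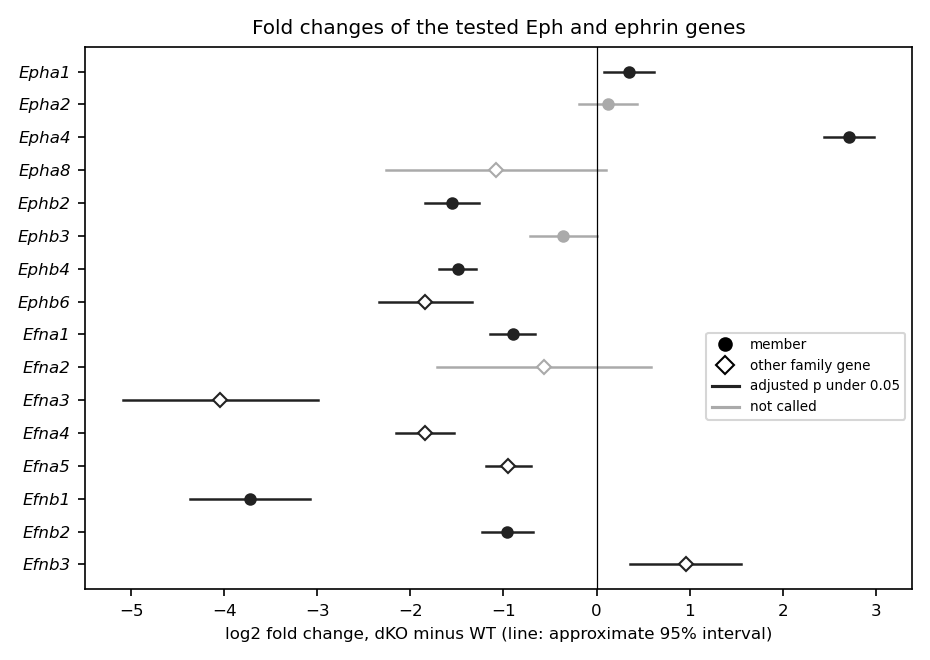
Log2 fold changes (dKO minus WT) of 16 tested Eph and ephrin genes with approximate 95% intervals, members as filled circles and other family genes as open diamonds, black where the edgeR adjusted p was under 0.05. Epha4 lies at 2.71 and Efnb1 at -3.73, and Epha10, at 0 in every library labelled dKO, is not drawn.

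Levels of different genes were compared as CPM per kb of exon length. In WT, Ephb4 led the receptors at 61.4 ± 5.84 CPM per kb, followed by Epha2 at 47.9 ± 6.66 and Epha1 at 21.9 ± 3.76 (SD, n = 3), with no overlap between neighbours in this order. In the libraries labelled dKO the order was Epha2 at 52.1 ± 8.67, Epha1 at 27.9 ± 1.57 and Ephb4 at 21.8 ± 1.43 CPM per kb, again without overlap. Epha4 moved from the seventh place to the fourth, from 0.827 ± 0.0744 to 5.43 ± 0.381 CPM per kb. Ephb2 and Ephb3 overlapped in WT, at 3.41 ± 0.110 and 3.04 ± 0.479 CPM per kb, and in the libraries labelled dKO Ephb3, at 2.38 ± 0.341 CPM per kb, overlapped with Ephb6 and lay above Ephb2 at 1.16 ± 0.181.

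The make-up of the receptor transcripts was set out by library. Of the summed CPM per kb of the 14 receptors, Ephb4 held 42.1%, 41.0% and 42.1% in WT 1, 2 and 3 and 18.8%, 19.6% and 19.4% in dKO 1, 2 and 3. Epha2 held 31.3%, 33.5% and 32.7% in WT and 48.9%, 48.2% and 40.4% in the libraries labelled dKO. These shares are not independent of each other, since a fall of one receptor raises the share of the rest. The sum of A-class receptors was 71.3 ± 10.2 CPM per kb in WT and 85.6 ± 7.37 in dKO, and that of B-class receptors was 75.8 ± 6.19 and 27.6 ± 0.522. The ratio of A-class to B-class receptors was 0.896, 1.00 and 0.913 in WT and 3.28, 3.18 and 2.85 in the libraries labelled dKO, so every library labelled dKO had more A-class than B-class receptor transcripts.

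For the ligands, Efna1 was the highest in both groups, at 38.3 ± 5.01 CPM per kb in WT, where its range overlapped with that of Efna4 at 29.7 ± 4.41, and at 20.5 ± 0.672 in the libraries labelled dKO, where it stood alone. Efnb2 followed at 19.3 ± 1.74 in WT and 9.92 ± 1.55 CPM per kb in dKO, the latter overlapping with Efna4. Efnb1 dropped from the fourth place, at 15.2 ± 2.75 CPM per kb and overlapping with Efna5, to the sixth, at 1.15 ± 0.409 CPM per kb. The share of Efnb1 in all ligand transcripts was 13.8%, 9.79% and 15.1% in WT and 2.75%, 1.39% and 2.83% in the libraries labelled dKO. The share of Efna1 was 32.3% ± 3.03 in WT and 41.7% ± 1.19 in dKO, and that of Efnb2 was 16.3% ± 2.08 and 20.1% ± 2.86. Summed over the 8 ephrins, the level was 119 ± 4.66 CPM per kb in WT and 49.3 ± 0.641 in dKO. The ratio of receptors to ligands was 1.19, 1.34 and 1.18 in WT and 2.41, 2.41 and 2.08 in the libraries labelled dKO, with no overlap.

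**Figure D3:**
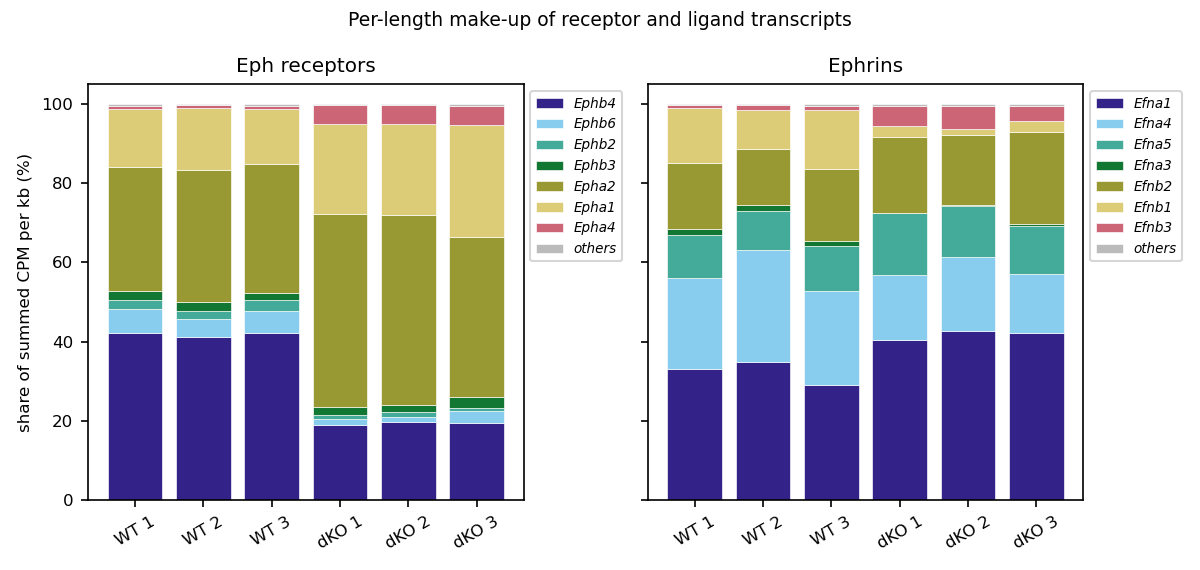
Share of each gene in the summed CPM per kb of exon length of the 14 Eph receptors (left) and the 8 ephrins (right) in each library, as stacked bars. Ephb4 makes up 41.0% to 42.1% of receptor transcripts in WT and 18.8% to 19.6% in dKO, and Efnb1 shrinks from at least 9.79% to at most 2.83% of ligand transcripts.

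Pairs of receptor and ligand were also set side by side on the same per-length scale. For EphB4 and its ligand, the ratio of Ephb4 to Efnb2 was 3.02, 3.91 and 2.74 in WT and 2.36, 2.64 and 1.73 in the libraries labelled dKO. Both genes fell, and the lowest ratio in WT lay just above the highest in dKO. For EphA2 and its ligand, the ratio of Epha2 to Efna1 was 1.13, 1.29 and 1.34 in WT and 2.92, 2.72 and 2.00 in the libraries labelled dKO. The ratio of Efnb2 to Efnb1, both B-class ligands, was 1.199, 1.44 and 1.21 in WT and 6.97, 12.9 and 8.23 in the libraries labelled dKO.

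LATS1 and LATS2 hold back YAP and TAZ, which reach DNA through TEAD factors. The promoter windows of the members were searched for the TEAD core motif, CATTCC on either strand. They were also searched for the AP-1 motif, TGANTCA, which reads the same on both strands. The windows were 250 bases before to 50 after each start in RefSeq on GRCm38.p6, and all 10 members matched, with 12 windows. CATTCC was found in 3 of the 12 windows, those of Epha2, Epha1 and Efnb2, against 14.7% of 32851 promoter windows of the same length. TGANTCA was found in none of the 12, against 7.81% of all windows. A match is a description of letters and not evidence of binding. The windows of the 3 members with a match are printed with the motif in capitals, followed by those of the members with the largest rise and fall, Epha4 and Efnb1, which hold neither motif. They lie at chr4:141300971-141301270 (plus strand), chr6:42373219-42373518 (minus), chr8:8661193-8661492 (minus), chr1:77515039-77515338 (minus) and chrX:99135811-99136110 (plus), in that order.
Epha2: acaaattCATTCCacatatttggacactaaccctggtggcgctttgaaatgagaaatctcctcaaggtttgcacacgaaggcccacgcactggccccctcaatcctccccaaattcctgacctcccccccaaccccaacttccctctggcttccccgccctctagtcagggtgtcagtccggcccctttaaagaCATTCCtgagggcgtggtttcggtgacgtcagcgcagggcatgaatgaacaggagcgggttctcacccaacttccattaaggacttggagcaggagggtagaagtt
Epha1: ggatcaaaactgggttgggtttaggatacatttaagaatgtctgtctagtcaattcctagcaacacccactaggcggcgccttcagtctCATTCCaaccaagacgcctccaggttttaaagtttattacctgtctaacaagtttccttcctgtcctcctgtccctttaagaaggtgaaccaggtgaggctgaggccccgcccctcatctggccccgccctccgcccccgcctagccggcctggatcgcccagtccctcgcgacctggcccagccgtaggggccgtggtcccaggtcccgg
Efnb2: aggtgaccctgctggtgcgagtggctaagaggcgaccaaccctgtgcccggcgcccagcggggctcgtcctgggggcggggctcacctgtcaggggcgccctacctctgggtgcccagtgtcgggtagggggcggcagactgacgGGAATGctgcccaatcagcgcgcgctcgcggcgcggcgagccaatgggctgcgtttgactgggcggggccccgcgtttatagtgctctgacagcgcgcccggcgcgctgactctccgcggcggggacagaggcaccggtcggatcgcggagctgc
Epha4: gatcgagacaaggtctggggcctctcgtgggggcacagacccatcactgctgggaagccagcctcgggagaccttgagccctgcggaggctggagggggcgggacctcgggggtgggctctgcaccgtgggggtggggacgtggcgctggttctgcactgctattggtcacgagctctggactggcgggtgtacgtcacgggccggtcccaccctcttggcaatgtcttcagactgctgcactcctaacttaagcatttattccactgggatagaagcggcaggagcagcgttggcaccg
Efnb1: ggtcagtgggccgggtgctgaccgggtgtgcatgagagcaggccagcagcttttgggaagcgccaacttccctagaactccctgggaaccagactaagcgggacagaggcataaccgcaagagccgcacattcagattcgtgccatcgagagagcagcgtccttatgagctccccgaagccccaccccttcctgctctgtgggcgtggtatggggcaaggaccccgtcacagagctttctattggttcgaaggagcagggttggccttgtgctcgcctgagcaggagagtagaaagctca

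In Epha2 the 2 matches began 243 and 56 bases before the start, in Epha1 the match began 161 bases before it, and in Efnb2, where the letters read GGAATG, 105 bases before it. Of these 3 genes, Efnb2 was called lower, Epha1 was called higher with a call that did not hold without single libraries, and Epha2 was not called.

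Efna1, Efna3 and Efna4 lie next to each other on chromosome 3, all on the minus strand, within 66.3 kb from 89271733 to 89338028 and with no other protein-coding gene between them. All 3 were lower in the libraries labelled dKO. Their surroundings, taken as 100 kb to each side and chosen after the values were seen, held other called genes. Of 11 tested genes before Efna1, 8 were called higher and 1 lower, and of 9 tested genes after Efna4, 7 were called lower and none higher, where the shares over all tested genes were 28.6% higher and 28.7% lower. Next to Efna4, Adam15, a metalloprotease gene, went from 88.5 to 44.7 CPM (called lower, edgeR adjusted p = 1.52e-05), and at the far end Pbxip1 fell from 34.8 to 0.0983 CPM, the latter under the floor. Beside Efna1, Slc50a1 was not called, at 27.8 CPM in WT and 24.0 CPM in dKO (edgeR adjusted p = 0.132). Of the exon bases, 14.13% of Efna3 and 10.51% of Efna4 are shared with a gene on the other strand, and none of Efna1.

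Genes that carry the signal inside the cell were followed as a list of 56. Of 53 tested, 14 were called higher and 20 lower, with a median log2 fold change of -0.04, beside 28.6% higher, 28.7% lower and a median of -0.01 over all tested genes.

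Of 18 kinases and adaptors, 6 were called higher and 5 lower, with a median of 0.08, counts near those shares of all genes. Rasa1, the gene of a Ras GTPase-activating protein recruited by EphB receptors, fell from 226 ± 16.2 to 87.7 ± 5.91 CPM, and Grb7, an adaptor gene, from 133 ± 12.9 to 40.8 ± 4.36 CPM. Their adjusted p values in edgeR were 1.98e-06 and 2.18e-06. The highest point of this group in the plot of pathway genes is Sla, the gene of a Src-like adaptor, picked out as that point with its values known. It had 8, 25 and 29 counts in WT, the first under the floor of 12, and 1009, 1056 and 702 counts in dKO, so it met the count filter in all 3 libraries only of the dKO group and its test is not given.

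Ptpn11, the gene of the phosphatase SHP2, rose from 255 ± 7.82 to 473 ± 34.6 CPM (edgeR adjusted p = 1.22e-05). Partners of the B-class ephrin tail and PDZ proteins had 2 called higher and 2 lower of 8 tested, beside 28.6% and 28.7% over all tested genes. Afdn, the gene of the junction protein afadin, rose from 260 ± 13.5 to 625 ± 10.6 CPM, and Pard6b, a polarity gene, from 33.7 ± 1.40 to 124 ± 15.6 CPM. Their adjusted p values in edgeR were 8.77e-07 and 1.19e-06.

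**Figure D4:**
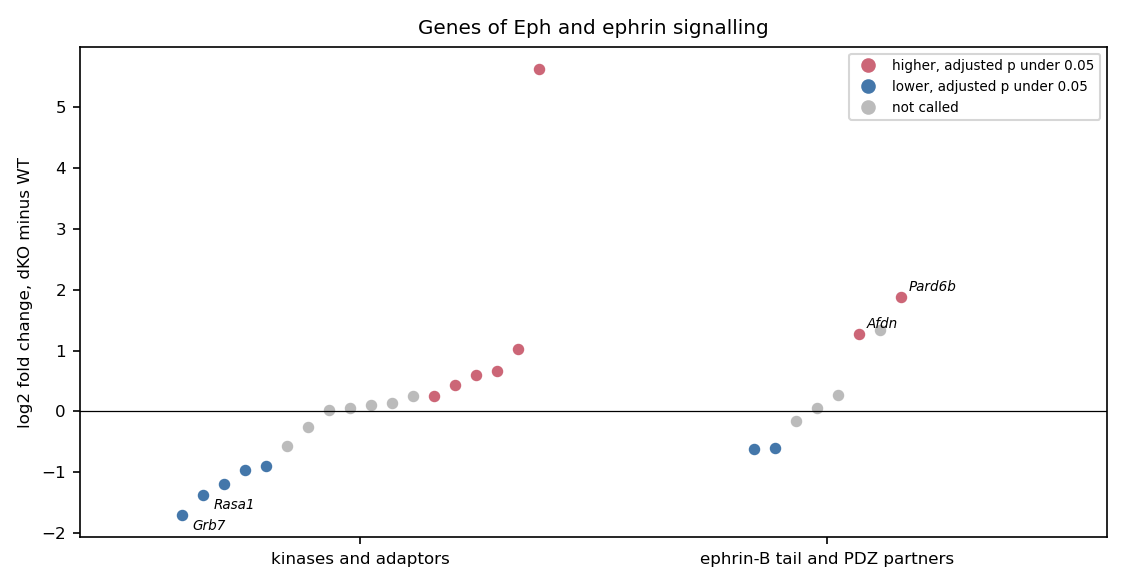
Log2 fold changes (dKO minus WT) of 26 tested genes of Eph and ephrin signalling in 2 groups, each point a gene, red or blue where called higher or lower by edgeR and grey where not called. Of the kinases and adaptors 6 are called higher and 5 lower, with Rasa1 at -1.37 and Grb7 at -1.71, and of the ephrin-B partners Afdn lies at 1.27 and Pard6b at 1.88.

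The genes most like the leading members were searched among 10063 tested genes with a mean of at least 5 CPM, by the Euclidean distance of log2 levels centred on each gene's mean over 6 libraries. Nearest to Epha4 were Rnd3, Pak3 and Arhgef16, at distances of 0.162, 0.275 and 0.306 on the log2 scale. Nearest to Ephb4, the member with the smallest p among those that fell, were Sdc4, Cep131 and Cnp, at 0.0660, 0.0677 and 0.121. These distances rest on 6 libraries in 2 groups, between which 57.3% of all tested genes were called.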

How the data were processed

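The authors deposited estimated counts per gene, which are whole numbers and not normalized, for 48820 mouse gene identifiers in 6 libraries. HISAT2 2.2.1, StringTie 2.2.1 and the build GRCm38 (mm10) were named, per the submitters' processing notes. How reads were counted, on which annotation and whether by strand is not given in the sources used here. Tables deposited by sample equalled the series table in all 6 libraries. Values piled up at 4 counts (678 to 775 genes per library, against 273 to 367 at 5), so a read pair was taken as worth 4, which puts the floor of 3 pairs at 12 counts in each library. The floor covers counting error only.

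GENCODE M21 gave symbols and positions for 48144 identifiers. Differences were tested in edgeR 4.0.16 (R 4.3.3) with TMM scaling, the filterByExpr filter, robust quasi-likelihood fits and genotype as the only term, over 15807 genes with Benjamini-Hochberg adjustment. A gene was called at an adjusted p under 0.05. The SE is the log2 fold change over the square root of F, and 95% intervals derive from it. Per-length levels use the union of exons. The test was also run on simulated counts in which far fewer genes were changed than were called here. Scaling and false calls under so broad a change were therefore not examined. Alternatives used limma 3.58.1, DESeq2 1.42.0, other scalings, filters and thresholds, and left-out libraries. The naming rule took all members, Lats1 and Lats2, called or absent family genes, the 2 called genes with the smallest adjusted p in each of 5 pathway groups, and the 3 genes nearest to the leading member in each direction. The members and lists were chosen with earlier results of these data known. Some pathway genes are not reported here.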

Additional observations from a re-analysis of the deposited data

How the results depend on the processing

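The calls of members were counted again under 18 alternatives. Of 162 single-member values, 151 kept their direction and side of the threshold, 7 lost a call (all Epha1), 4 gained one (Ephb3 and Epha2) and 0 reversed. Epha4, Ephb2, Ephb4, Efna1, Efnb1 and Efnb2 kept their calls throughout. Tested against 1.5-fold, a stricter null hypothesis, 1 member and 0 other family genes were called higher, pathway calls were 8 higher and 12 lower, and 4556 of all genes were called against 9060. At an adjusted p under 0.01, Epha1 and Efnb3 lost their higher calls. Epha4 and the 5 members called lower kept theirs, as did Efna4, Efna5 and Ephb6. With each library left out in turn, members called higher ran from 1 to 2 and other family genes called higher from 0 to 1.

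Same-numbered libraries did not deviate together (correlations of -0.06, 0.05 and 0.08 across genes). With 3 libraries per group, this cannot tell whether same-numbered libraries were made together. With the replicate block, 2 members were called higher and 5 lower, and 8658 genes in all. With the length of the longest coding transcript, the share of Ephb4 was 39.3% in WT and 17.5% in dKO, that of Epha2 34.2% in WT, and that of Efnb2 20.8% in WT and 25.2% in dKO. Depth limits Efna3, Epha8, Epha10 and Efna2, whose libraries labelled dKO held between 0 and 72 counts.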
